A study of Rattus with 9 samples.

Results

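The genes of the IL-17 and IL-23 axis were followed in single cells of the rat bile duct. The members were the 7 features whose symbol is Il17a, Il17f, Il22, Il23r, Il23a, Ccr6 or Il17ra, out of 23999 features, and all 7 were present in every count matrix. Droplet-based 3' scRNA-seq had been run on 9 samples with 20 libraries, and 139932 cells were kept. The samples sham 1, 2 and 3, whose labels say no more than sham, had 1 library each. The ctrl samples were bile ducts taken on days 1, 3 and 7 after liver transplantation (LT) of a graft with warm ischemic injury, with 3 libraries each. The treat samples came from the same days and the same LT model, with arterial flow to the graft raised by tying the splenic and gastroduodenal arteries, and had 3, 2 and 3 libraries analysed here. The rats were Sprague-Dawley animals of both sexes. The 6 ctrl and treat samples are called transplanted, and each arm holds 1 sample per day. The labels do not say whether the samples or libraries come from separate rats, so p-values measure the spread between these samples only, which may be technical.

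IL-17A and IL-17F are related cytokines released by type 17 lymphocytes, a group that includes helper T cells, γδ T cells, mucosal-associated invariant T cells and innate lymphoid cells. Both act on a receptor that contains IL-17RA and drive epithelial and stromal cells to make neutrophil-attracting chemokines. IL-22 is a partner cytokine that acts on epithelium. IL-23, built from IL-23p19 (Il23a) and the p40 subunit shared with IL-12 (Il12b), is made by myeloid cells and sustains type 17 lymphocytes through its receptor IL-23R. CCR6 is the receptor for CCL20 and guides B cells and type 17 lymphocytes into epithelial tissue.

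Cells were grouped into 40 clusters on genes that did not include the members or the other axis genes, and 26 clusters were named from marker lists as 16 cell classes ("T-like" and so on; BEC, fibroblast and mural are used in the same sense), which held 106707 cells. BECs, the biliary epithelial cells that define the duct, numbered 426 to 4454 per sample. The T-like class was a single cluster of 10524 cells led by Cd3d and Cd3g, with 8 of 10 T cell markers. Total UMI counts ran from 14398295 to 109245177 per library. Levels are given in CPM, the UMIs of a gene scaled to a fixed total of UMIs, after summing over the cells of a sample or class, and levels of different genes are not compared. In sums over all cells, fewer cells of a type and less RNA per cell cannot be told apart. A few libraries stood apart. Library 2 of ctrl day 7 had 149 CPM of Il17a and 86.5 CPM of Il23a over all its cells, against 10.4 and 8.46 CPM of Il17a and 2.53 and 6.23 CPM of Il23a in the other libraries of that sample. In ctrl day 3, 1 T-like cell held 593 of the 885 Il17a UMIs, and libraries 2 and 3 of that sample kept 408 and 326 cells because a limit on hemoglobin reads removed 2479 and 3966 barcodes. In ctrl day 1, library 2 held 1310 of the 1860 Il23a UMIs, at 54.6 CPM, and library 1 held 2456 of the 3539 Il17ra UMIs, at 49.8 CPM. In treat day 7, library 1 held 1362 of the 1752 Ccr6 UMIs, at 20.5 CPM. Many values are therefore also given without them.

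The 7 members fell into lymphoid, myeloid and widely detected genes. Il17a, Il17f, Il22 and Il23r were read mainly in T and NK lymphocytes, Il23a mainly in neutrophils, Ccr6 in B and T cells, and Il17ra in nearly every class. The word lymphocytes is used for the 24047 cells of the T-like and NK-like clusters and of the unnamed clusters nearest to them or led by their markers, without B-like cells. Of all UMIs of a member in kept cells, they held 94.6% for Il17a, 92.9% for Il22, 87.7% for Il17f, 85.9% for Il23r, 50.3% for Ccr6, 11.7% for Il17ra and 4.14% for Il23a. These counts rested on 11392 Il17a UMIs in 529 cells, 617 Il17f UMIs in 173 cells, 183 Il22 UMIs in 96 cells and 462 Il23r UMIs in 349 cells. Il23a had 9740 UMIs in 4071 cells, Ccr6 had 5207 in 3878 cells and Il17ra had 34540 in 26018 cells.

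**Figure D1:**
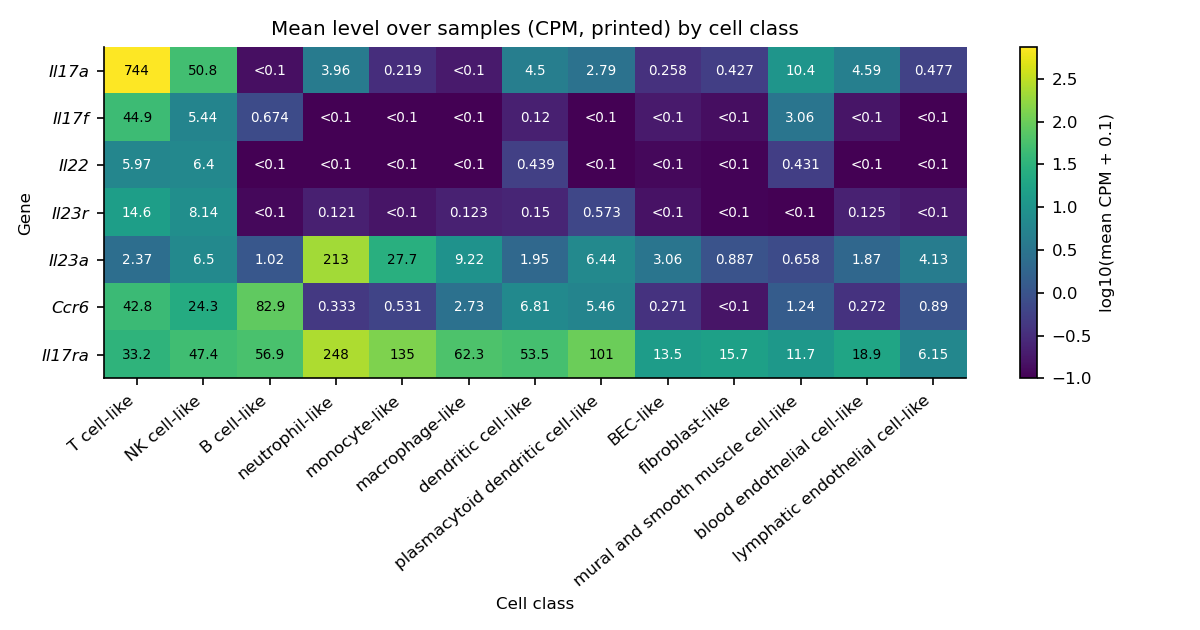
Mean level of each member (rows) in each cell class (columns), in CPM averaged over the samples with at least 20 cells of the class; the printed number is the mean and the color its log10. Il17a and Il17f are highest in T-like cells, Il23a and Il17ra in neutrophil-like cells and Ccr6 in B-like cells.

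Il17a (ENSRNOG00000012467), the founding cytokine of the family, stood at 744 ± 901 CPM (SD, n = 9 samples) in T-like cells, which held 81.9% of its UMIs. The next class, NK-like cells, averaged 50.8 CPM but came from sham 2, sham 3 and ctrl day 7 alone, with 96.3, 360 and 0.67 CPM, and had no Il17a UMI in the other 6 samples. The NK-like class was not made of the same cells in every sample. When the lymphocytes were clustered again on their own, sham 1, 2 and 3 had 38, 204 and 358 NK-like cells, of which the larger of 2 clusters named NK-like took up 28, 44 and 31 and the smaller 3, 8 and 11. In sham 2 and 3, 120 and 291 of the others fell into an unnamed cluster led by Prss1, a digestive enzyme gene of the pancreas, that held at most 22 NK-like cells of any other sample. T-like cells were above NK-like cells in 9 of 9 samples (two-sided exact sign-flip permutation test over samples, p = 0.0039, adjusted p = 0.164 over the 84 pairs of neighbouring classes compared, none of which passed). The smallest p this test can give is 0.0039 with 9 samples and 0.0156 with 7. A pair at that floor could pass the adjustment only together with several others, so not passing says little. The neighbours were also chosen by sorting classes on these same levels. Few cells carried this RNA. Of the 529 cells with an Il17a UMI, 203 had 10 or more, and the tenth of these cells with the most UMIs held 56.7% of them.

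Within the lymphocytes, re-clustered into 20 clusters, Il17a sat mainly in a cluster of 1889 cells. This cluster held 7826 Il17a UMIs, 68.7% of the total, and 13.8% of its cells had an Il17a UMI. These values are pooled over samples. T-like cells of ctrl day 7 gave 3983 of these UMIs, or 571 without library 2. Of the Il17a UMIs of T-like cells, the cluster held 23.4% in ctrl day 3 and 75 to 100% in the other samples. The cluster was led by Il17a, Hs3st1, Cd40lg and Pxdc1. It stayed unnamed, since it reached 2 of 8 markers of its nearest list, CD4 T cells, where at least 3 were needed. The same cluster held 42.6% of Il17f, 57.9% of Il22 and 55.6% of Il23r UMIs, but 10.7% of Ccr6 UMIs. A cluster nearest to regulatory T cells held a further 7.68% of Il17a and 11.5% of Il23r UMIs. The clusters named NK-like in this second grouping held 1 and 0 Il17a UMIs.

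**Figure D2:**
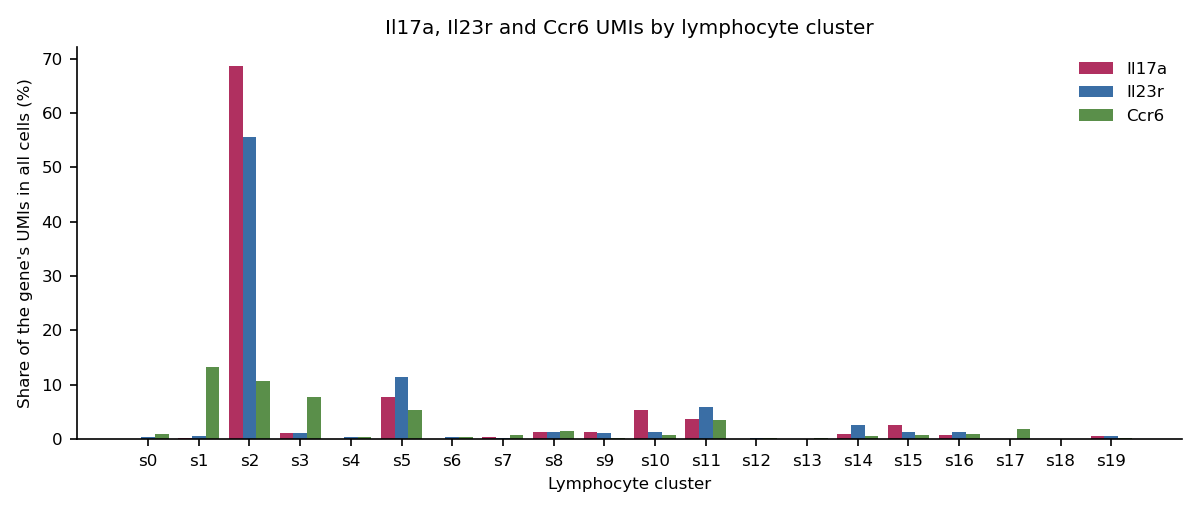
Percent of all Il17a, Il23r and Ccr6 UMIs in kept cells that lie in each of the 20 lymphocyte clusters, with clusters ordered by size. Il17a and Il23r peak in the same cluster (68.7% and 55.6%), while Ccr6 is spread over several. Shares are pooled over samples, and library 2 of ctrl day 7 held 5143 of the 11392 Il17a UMIs.

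The Il17a cells also carried other genes of the axis. Of the 403 lymphocytes with an Il17a UMI, 29.0% had an Il23r UMI, against 0.727% of the 23644 lymphocytes without one. Ccr6 was read in 39.5% against 7.17%, Il17f in 24.6% against 0.114% and Il22 in 8.19% against 0.237%. Depth was close, with a median of 3414 UMIs per cell with Il17a and 3113 without. Il17ra was read in 19.9% against 14.3%, a smaller gap than for the cytokine and IL-23 receptor genes. Outside the members, the costimulator Icos was read in 81.6% against 36.5%, Rora in 34.7% against 14.8%, the IL-7 receptor gene Il7r in 33.5% against 10.7%, the kinase gene Blk in 16.4% against 0.309%, Cxcr6 in 20.3% against 5.05% and the collagenase gene Mmp13 in 13.2% against 0.732%. The cytotoxic genes Prf1 and Gzmk went the other way, in 11.9% against 35.3% and in 4.22% against 28.7%. Other cytotoxic genes are not given here. Icos, Rora, Blk, Cxcr6 and Mmp13 were higher in the Il17a cells in 8 of 8 samples that held at least 10 of them, and Prf1 and Gzmk in 0 of 8.

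Over all cells Il17a did not separate the groups. It stood at 34.0, 5.44 and 9.44 CPM in sham 1, 2 and 3, at 4.73, 17.4 and 41.5 CPM in ctrl on days 1, 3 and 7, and at 4.91, 7.11 and 7.02 CPM in treat on the same days. The sham and transplanted ranges overlapped, and the highest values were ctrl day 7 and sham 1. The difference was -0.07 on the log2 scale (SE 0.67, edgeR's quasi-likelihood test with Benjamini-Hochberg adjustment, adjusted p = 0.950). The ctrl day 7 value rested on 1 library and the ctrl day 3 value on 1 cell. Without library 2, ctrl day 7 stood at 9.39 CPM, since that library held 5143 of its 6229 Il17a UMIs, and without its top cell ctrl day 3 stood at 5.73 CPM. Treat was below ctrl by 1.79 on the log2 scale (log2 fold change -1.79, SE 0.79), with adjusted p = 0.999 in edgeR's test, and the gap was -0.75 without library 2 of ctrl day 7.

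**Figure D3:**
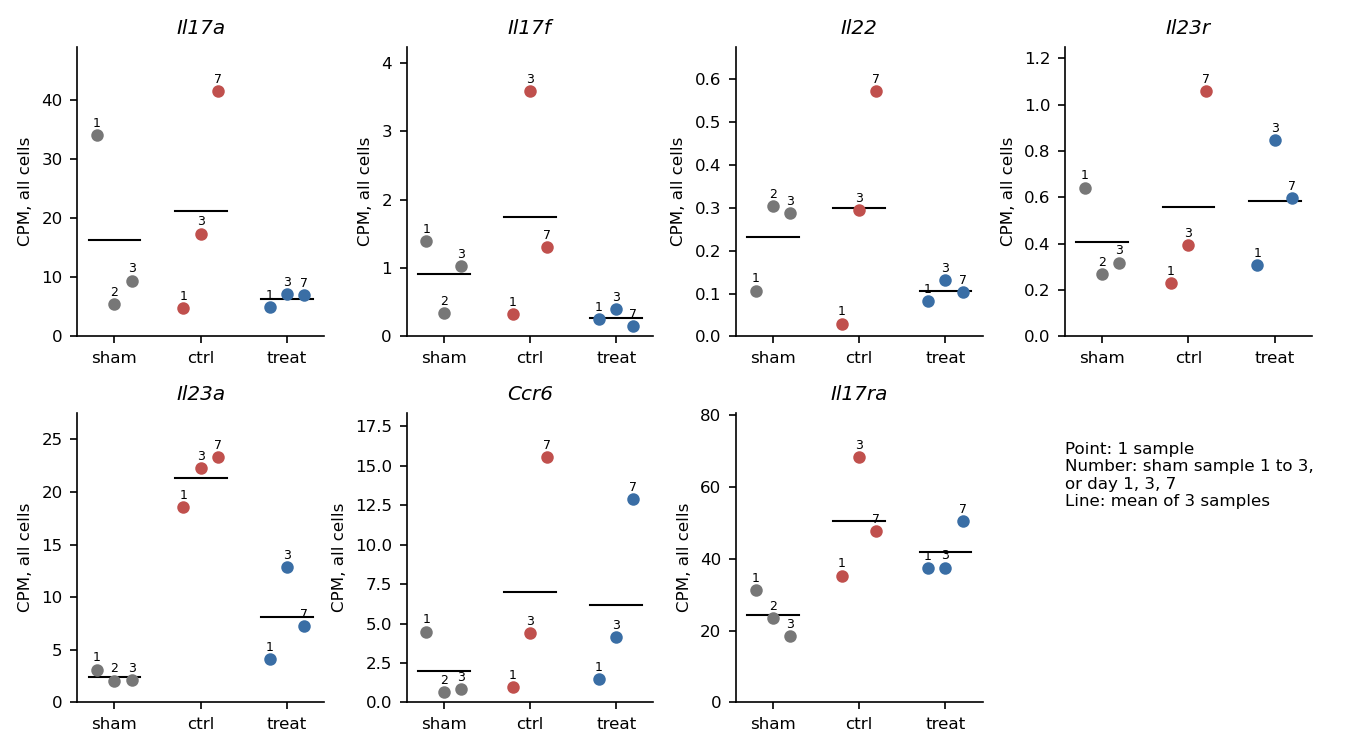
Level of each member over all kept cells in CPM (y axis of each panel, from 0), by group (x axis); each point is a sample, with its sham number or its day, and each line the mean of the 3 samples of a group. Il23a and Il17ra are higher in all 6 transplanted samples than in all 3 sham samples, and the other members overlap.

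Within T-like cells the level of Il17a was lower after LT, but this depended on how the lymphocytes were divided. Sham 1, 2 and 3 stood at 1101, 783 and 2985 CPM, on 76, 60 and 32 T-like cells. The sham 3 value rested on 4 cells with an Il17a UMI, 1 of which held 108 of the 270 UMIs. Ctrl stood at 557, 407 and 376 CPM on days 1, 3 and 7, on 262, 377 and 3924 cells, and treat at 341, 80.6 and 63.1 CPM on 717, 1795 and 3281 cells. Every transplanted sample lay below every sham sample. Without its top cell ctrl day 3 stood at 113 CPM, and without library 2 ctrl day 7 stood at 61.3 CPM. The separation from sham ended without library 1 of ctrl day 1 (952 CPM) and without library 3 of ctrl day 7 (804 CPM), which left each sample above sham 2. Over the T-like class Il17a fell by 2.52 on the log2 scale (SE 0.40, 5.74-fold lower, edgeR adjusted p = 0.0110). It was the only call among the 6 members that passed the filter on low counts, Il23a being the member that did not, and 0.244% of all genes tested were called in this comparison. The exact permutation test gave p = 0.0238 (0.0833 adjusted over the 7 members), and 2.55% of genes had transplanted samples that lay wholly below sham. In treat the fall was 3.29 on the log2 scale (adjusted p = 0.0119, 0.141% of genes called), and in ctrl the value was -1.75 (adjusted p = 0.287).

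The make-up of the T-like class also differed between samples, but not always in step with its Il17a level. The Il17a cluster of the second clustering made up 47.4%, 18.3% and 34.4% of the T-like cells of sham 1, 2 and 3, on 36, 11 and 11 cells. It made up 32.1%, 24.1% and 9.61% in ctrl and 23.6%, 25.7% and 15.1% in treat. The sham and transplanted shares thus overlapped. Sham 2 lay below several transplanted samples in this share, though above all of them in the Il17a level of T-like cells. Among the T-like cells of that cluster Il17a stood at 1570, 4439 and 8350 CPM in sham, 1640, 312 and 3504 CPM in ctrl and 1286, 233 and 345 CPM in treat, so that sham and ctrl overlapped there while treat lay below sham. Ctrl day 7 stood at 694 CPM without library 2. The part of the make-up in the difference was not tested. In sham 2 and sham 3 Il17a was divided between classes, while in sham 1 and in the transplanted samples at least 81.3% of it lay in the T-like class. The T-like class held 98.1%, 59.2% and 43.3% of the Il17a UMIs of sham 1, 2 and 3, but 81.3 to 95.7% of those of the transplanted samples. The NK-like class held 14.5% in sham 2 and 45.7% in sham 3, and 1 blood endothelial-like cell held 70 UMIs, 23.0%, in sham 2. With T-like and NK-like cells summed together the log2 fold change was -1.55 (edgeR adjusted p = 0.0746), and with all clusters nearest to T or NK cells it was -1.55 (adjusted p = 0.112). The call was also lost without sham 3 (-1.89, adjusted p = 0.183), without treat day 3 (-2.35, adjusted p = 0.0831), with free RNA subtracted (-2.44, adjusted p = 0.176), at a finer clustering (-1.57, adjusted p = 0.0926) and when libraries stood in for samples (-1.78, adjusted p = 0.640). It held without library 2 of ctrl day 7 (-2.71, adjusted p = 0.0476), without the top cell of ctrl day 3 (-2.70, adjusted p = 0.0294), and in 20 of the 27 alternatives in all. In sham 2, 2 T-like cells rich in insulin RNA held 70244 of the 229841 T-like UMIs, and without such cells the log2 fold change was -2.51 (adjusted p = 0.0102).

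The share of cells with an Il17a UMI behaved likewise. Among T-like cells it was 13.2% (10 of 76 cells, exact Clopper-Pearson 95% interval 6.49 to 22.9%), 10.0% (6 of 60, 3.76 to 20.5%) and 12.5% (4 of 32, 3.51 to 29.0%) in sham. In ctrl it was 7.25% (19 of 262), 3.98% (15 of 377) and 2.80% (110 of 3924), and in treat 5.72% (41 of 717), 2.34% (42 of 1795) and 1.92% (63 of 3281). The shares of all 3 sham samples lay above those of all 6 transplanted samples, with a mean of 11.9 ± 1.67% against 4.002 ± 2.10% (SD; exact permutation test, p = 0.0238, adjusted p = 0.0556 over the members). BECs, which should lack the gene, had an Il17a UMI in 0.057 to 0.469% of cells. Their medians of 3912 to 11698 UMIs per cell were higher than those of T-like cells, 2540 to 4417. With each cell thinned to 1000 UMIs the mean difference was -7.65 percentage points, and -7.88 without thinning. Over all 24047 lymphocytes the share was 7.48%, 1.43% and 2.75% in sham, 3.27%, 2.88% and 1.68% in ctrl and 2.48%, 1.61% and 1.04% in treat. Here the groups overlapped and the difference was -1.72 percentage points (exact permutation test, p = 0.381). A cluster like group 2 innate lymphoid cells made up 46.6% and 47.7% of the lymphocytes of sham 2 and 3, with 294 and 416 cells, and held at most 7 cells in any other sample; it had 8 Il17a UMIs in all. Counted over all cells, the share was 0.613%, 0.129% and 0.261% in sham and 0.202 to 0.631% in the transplanted samples. T-like cells themselves made up 3.33%, 0.646% and 0.288% of sham cells and 2.03 to 12.7% of transplanted cells. Intervals cover counting error only.

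**Figure D4:**
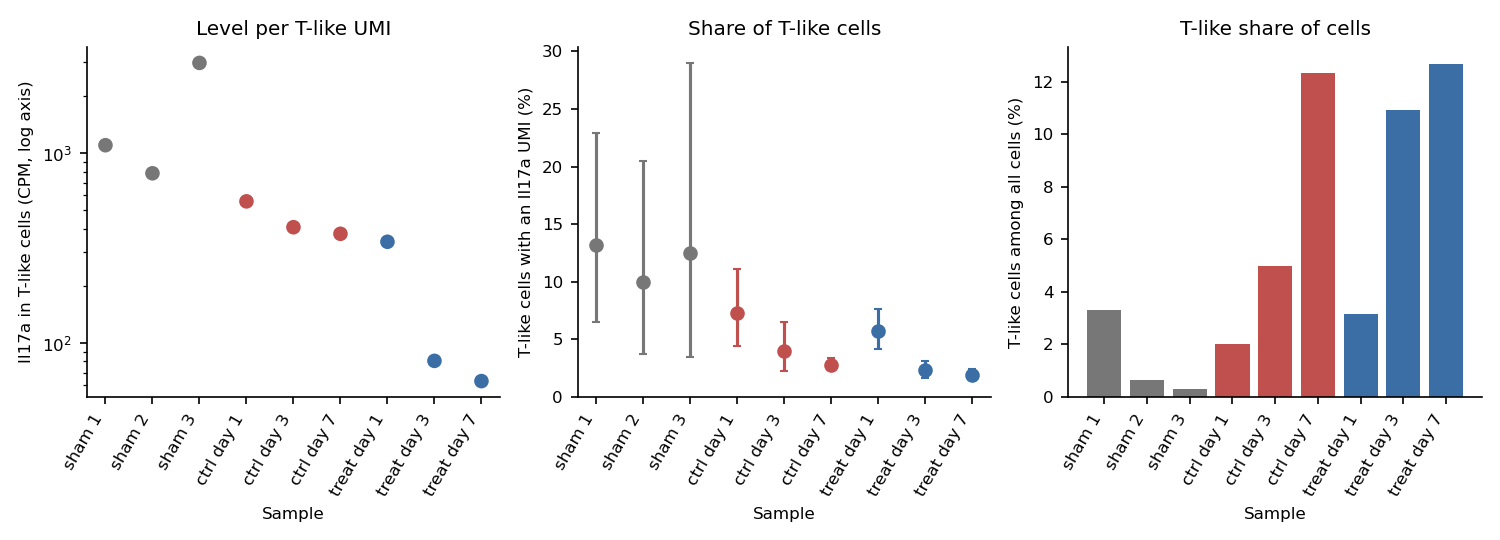
Il17a in T-like cells by sample: level in CPM (log axis), percent of T-like cells with an Il17a UMI with exact 95% binomial intervals, and T-like cells as a percent of all kept cells, in gray for sham, red for ctrl and blue for treat. Level and share are highest in the 3 sham samples, which have 32 to 76 T-like cells each.

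Among T-like cells Il17a was also lower on day 7 than on day 1 post-LT. The log2 fold change was -1.52 (SE 0.39, edgeR adjusted p = 0.0415), where 1.88% of genes were called and 0.635% were called lower. Without library 2 of ctrl day 7 it was -2.71 (adjusted p = 0.00045), because that library's 198 T-like cells held 6404 CPM of Il17a, with the gene read in 35.4% of them. The other libraries of ctrl day 7 stood at 92.6 and 39.5 CPM. The share of the Il17a cluster in the T-like class moved with this difference, from 32.1% to 9.61% in ctrl and from 23.6% to 15.1% in treat, and its part was not tested. Among the T-like cells of that cluster Il17a stood at 1640 CPM on day 1 and 3504 CPM on day 7 in ctrl, and at 1286 and 345 CPM in treat. Day 7 was therefore the higher in ctrl and the lower in treat, but without library 2 ctrl day 7 stood at 694 CPM and was the lower in both. The call was lost without treat day 1 (-0.68, adjusted p = 1.00), without treat day 7 (-0.93, adjusted p = 0.528), in a fit of the transplanted samples alone (adjusted p = 0.0739), by DESeq2 (-1.55, adjusted p = 0.285) and over libraries in place of samples (-0.54, adjusted p = 0.948). It was also lost with free RNA subtracted (-1.41, edgeR adjusted p = 0.188), with doublets kept (adjusted p = 0.0905), without the hemoglobin limit (adjusted p = 0.0618) and with NK-like cells (adjusted p = 0.172) or all T and NK clusters (adjusted p = 0.265) added, and held in 14 of 24 alternatives. Treat lay below ctrl in T-like cells by 1.54 on the log2 scale (log2 fold change -1.54, edgeR adjusted p = 1.00). The 3 treat samples were all below the 3 ctrl samples, as for 2.94% of genes, and the exact permutation p of 0.1 is the smallest that 3 against 3 samples can give. This separation rested on single libraries and on 1 cell. It ended without library 2 of ctrl day 7 (61.3 CPM), library 1 of ctrl day 3 (40.7 CPM), library 2 of ctrl day 1 (305 CPM) or library 1 of treat day 1 (514 CPM), and without the top cell of ctrl day 3 (113 CPM). Without library 2 of ctrl day 7 the log2 fold change was -1.13 (edgeR adjusted p = 1.00). With day as a block, which sets samples of the same day against each other, the value was -1.91 (edgeR adjusted p = 0.0106), in a fit that called 4 of 8342 genes (0.048%). The blocked call ended without library 2 of ctrl day 7 (-1.02, edgeR adjusted p = 1.00) and without the top cell of ctrl day 3 (-1.28, adjusted p = 0.978).

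**Figure D5:**
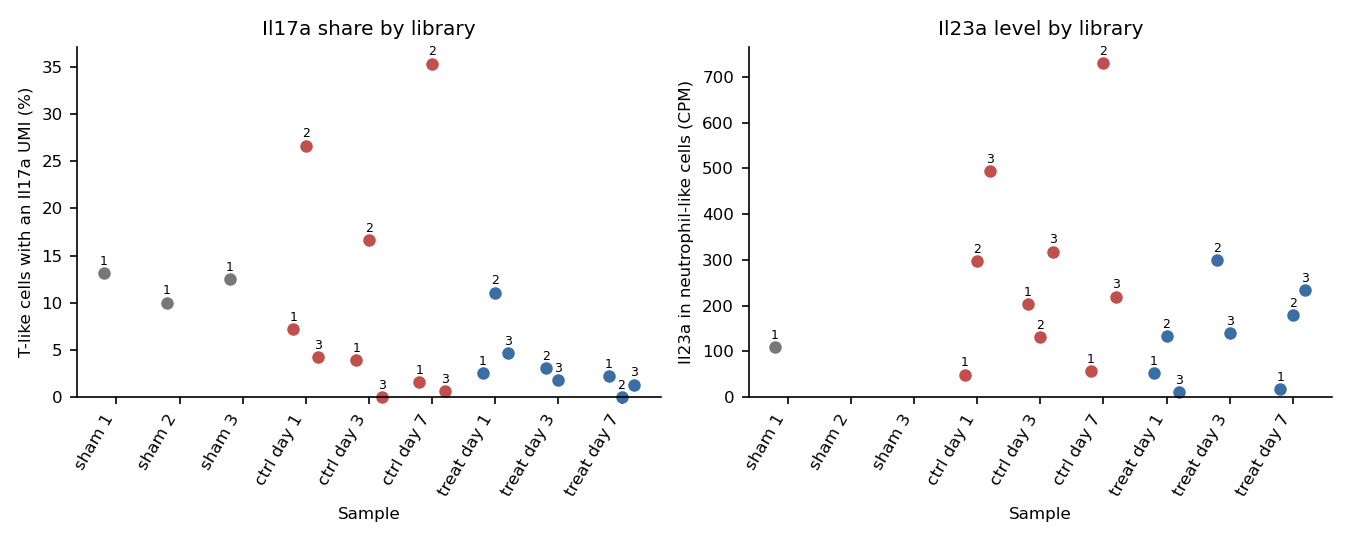
Percent of T-like cells with an Il17a UMI (left) and Il23a level in neutrophil-like cells in CPM (right, libraries with at least 20 such cells); each point is a library with its number, in gray for sham, red for ctrl and blue for treat. Library 2 of ctrl day 7 stands highest in both, at 35.4% and 730 CPM; library 2 of ctrl day 1 (26.7%) and libraries 2 and 3 of ctrl day 3 rest on 15, 6 and 12 T-like cells.

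Il17f (ENSRNOG00000012509), whose product pairs with IL-17A, is encoded next to Il17a. In the GRCr8 gene table both lay on chromosome 9 with 2 genes and no protein-coding gene between them. It was read in T-like cells at 44.9 ± 47.9 CPM (SD, n = 9), above NK-like cells (5.44 CPM) in 9 of 9 samples (exact permutation p = 0.0039, adjusted p = 0.164). Of the 480 lymphocytes with an Il17a, Il17f or Il22 UMI, 285 had Il17a alone, 21 had Il17f alone and 50 had Il22 alone. A further 85 held Il17a and Il17f, 19 Il17a and Il22, 6 Il17f and Il22, and 14 all 3. Most cells with Il17f therefore also had Il17a, while most cells with Il22 did not.

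Over all cells Il17f stood at 1.39, 0.34 and 1.03 CPM in sham, 0.33, 3.59 and 1.30 CPM in ctrl and 0.25, 0.40 and 0.15 CPM in treat. The ctrl day 3 value fell to 0.26 CPM without its top Il17a cell, and the ctrl day 7 value to 0.36 CPM without library 2. The groups overlapped (transplanted against sham, log2 fold change -0.06, edgeR adjusted p = 0.962). In T-like cells it stood at 45.9, 69.6 and 144 CPM in sham, 27.3, 88.4 and 10.2 CPM in ctrl and 14.2, 3.78 and 1.26 CPM in treat. Without its top cell ctrl day 3 stood at 3.99 CPM, and without library 2 ctrl day 7 stood at 2.58 CPM. Ctrl day 1 stood at 9.30 CPM without library 2 and at 86.5 CPM without library 1. Treat day 1 stood at 5.15 CPM without library 3 and at 22.9 CPM without library 1. All 3 treat samples lay below all 3 sham samples, while ctrl day 3 lay among the sham samples, and the difference after LT did not pass (log2 fold change -2.44, SE 0.77, edgeR adjusted p = 0.215). It passed with day as a block (-2.61, edgeR adjusted p = 0.00239), where 1.25% of genes were called, with no filter on low counts (-2.28, adjusted p = 4.33e-08) and without treat day 1 (-2.97, adjusted p = 0.0487). Without the top cell of ctrl day 3 it was -3.34 (adjusted p = 0.0536). Il17f fell from day 1 to day 7 by 2.50 on the log2 scale (SE 0.53, edgeR adjusted p = 0.0106). This call was lost without treat day 1 (-1.16, adjusted p = 1.00), in the transplanted samples alone (adjusted p = 0.0739) and over libraries in place of samples (-1.52, adjusted p = 0.640). It was also lost with free RNA subtracted (-2.44, edgeR adjusted p = 0.0594), with doublets kept (-2.02, adjusted p = 0.0690) and with NK-like cells (adjusted p = 0.105) or all T and NK clusters (adjusted p = 0.0623) added, and held in 17 of 24 alternatives. Free RNA made up an estimated 3.00% and 3.91% of T-like UMIs on day 1 and 13.1% and 16.6% on day 7 in ctrl and treat. Treat against ctrl in T-like cells gave a log2 fold change of -3.05 (edgeR adjusted p = 1.00), or -3.00 with day as a block (adjusted p = 0.00181). Of the 6 members tested in T-like cells 0 passed without the block, where 1 gene (0.0129%) passed and 131 of 7782 had an unadjusted p under 0.05. With the block 2 passed, Il17a and Il17f, against 0.048% of genes. The Il17f call with the block also ended without library 2 of ctrl day 7 (-2.45, edgeR adjusted p = 0.104) and without the top cell of ctrl day 3 (-1.56, adjusted p = 1.00), which held 170 of the 178 Il17f UMIs of the T-like cells of that sample.

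Il22 (ENSRNOG00000007365), which acts on epithelial repair and defence, was the least detected member. T-like and NK-like cells could not be ordered, at 5.97 ± 7.18 and 6.40 ± 9.23 CPM (SD, n = 9, exact permutation p = 0.383). They held 55.7% and 24.0% of its UMIs. Over all cells it stood at 0.11, 0.30 and 0.29 CPM in sham, 0.03, 0.29 and 0.57 CPM in ctrl and 0.08, 0.13 and 0.10 CPM in treat. Without library 2, which held 69 of its 86 Il22 UMIs, ctrl day 7 stood at 0.15 CPM. Without its own library 2, which held 11 of its 12 Il22 UMIs, treat day 3 stood at 0.02 CPM. The sham and transplanted ranges overlapped (log2 fold change -0.28, edgeR adjusted p = 0.820). In the NK-like class it was read mainly in sham 2 and sham 3, at 24.1 and 20.2 CPM on 11 and 16 UMIs, and at 0 to 5.75 CPM elsewhere. All 16 UMIs of sham 3 lay in the unnamed cluster described for Il17a, and 0 lay in the clusters named NK-like. The 11 UMIs of sham 2 are not divided by cluster here. In T-like cells the level was 0, 13.1 and 22.1 CPM in sham, 3.72, 5.46 and 4.16 CPM in ctrl and 3.33, 0.91 and 0.95 CPM in treat. All 3 treat samples lay below all 3 ctrl samples, as for 2.94% of genes (exact permutation p = 0.1), on a log2 fold change of -1.72 (edgeR adjusted p = 1.00). The ctrl samples held 3, 11 and 56 of these UMIs. Without library 2, ctrl day 7 stood at 0.86 CPM, below all treat samples, and the log2 fold change was -0.88 (edgeR adjusted p = 1.00). The separation also ended without library 2 of ctrl day 1, library 1 of ctrl day 3 or library 1 of treat day 1.

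Il23a (ENSRNOG00000003254), the subunit specific to IL-23, had the largest fold change of the 7 members over all cells after LT. Over all cells it stood at 3.10, 2.08 and 2.09 CPM in sham 1, 2 and 3. Ctrl stood at 18.5, 22.3 and 23.3 CPM on days 1, 3 and 7, and treat at 4.11, 12.9 and 7.27 CPM. Without library 2, ctrl day 1 stood at 7.21 CPM and treat day 7 at 4.03 CPM. All 6 transplanted samples lay above all 3 sham samples, as for 3.63% of genes, but without its library 2 treat day 1 stood at 3.03 CPM, below sham 1. Il23a rose by 2.79 on the log2 scale (SE 0.38, 6.90-fold, edgeR adjusted p = 0.0127; exact permutation p = 0.0238, 0.0833 adjusted over the members). It was 1 of 2 members of 7 called over all cells, both higher, where 12% of all genes tested were called and 4.98% were called higher. In ctrl the rise was 3.51 (edgeR adjusted p = 0.0173, 8.58% of genes called). In treat the log2 fold change was 2.06 (edgeR adjusted p = 0.0671); here 0 of 15975 genes passed and 3703 had an unadjusted p under 0.05, while DESeq2 called 2348. The call for all transplanted samples was lost without sham 2 (2.74, adjusted p = 0.0659), without sham 3 (2.74, adjusted p = 0.0794) and over libraries in place of samples (3.04, adjusted p = 0.0512), and held in 33 of 36 alternatives. Without library 2 of ctrl day 1 it was 2.64 (adjusted p = 0.0193).

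Against sham, the number of neutrophil-like cells moved with Il23a. Sham 1, 2 and 3 had 66, 4 and 6 such cells, against 3404, 2394 and 2466 in ctrl and 2689, 1218 and 959 in treat. As a share of all kept cells these were 2.89%, 0.043% and 0.0539% in sham, 26.4%, 31.6% and 7.75% in ctrl and 11.9%, 7.40% and 3.71% in treat. In each arm the share was lowest on day 7. Il23a was lowest on day 1 in treat, and in ctrl it was highest on day 7 with library 2 and lowest on day 7 without it (4.43 CPM). Neutrophil-like cells held 41.4%, 0% and 1.4% of the Il23a UMIs in sham, 72.4%, 84.1% and 60.3% in ctrl and 52.1%, 39.0% and 21.6% in treat. In sham 2 and sham 3 the UMIs came instead from BECs (26.7% and 29.0%), macrophage-like cells (18.1% in each), fibroblasts (17.2% and 21.0%) and unnamed clusters (28.4% and 26.8%). Within neutrophil-like cells the level was 109 CPM in sham 1, the only sham sample with at least 20 such cells. It was 174, 205 and 510 CPM in ctrl and 69.3, 270 and 154 CPM in treat, so sham 1 lay within the transplanted range. How much of the rise over all cells came with neutrophil number was not tested.

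Treat and ctrl did not overlap in Il23a over all cells, and treat was the lower (log2 fold change -1.45, SE 0.38, unadjusted p = 0.0043, edgeR adjusted p = 0.999). The exact permutation p was 0.1, and 2.17% of genes lay wholly below in treat. For treat against ctrl 0 of 15975 genes passed in edgeR and 526 had an unadjusted p under 0.05, while DESeq2 called 11. Library 2 of ctrl day 7 and library 2 of ctrl day 1 each carried part of this gap. Without the first, ctrl day 7 stood at 4.43 CPM, inside the treat range, and the log2 fold change was -0.93. Without the second, ctrl day 1 stood at 7.21 CPM, also inside the treat range, and the log2 fold change was -1.16. In neutrophil-like cells treat against ctrl was -1.03 (edgeR adjusted p = 0.996), and 0.05 without library 2 of ctrl day 7. That library had 730 CPM of Il23a in its 1353 neutrophil-like cells, of which 37.8% had an Il23a UMI, and without it ctrl day 7 stood at 112 CPM. The other libraries with at least 20 such cells ranged from 10.5 to 495 CPM. Without library 2 of ctrl day 7 the rise of Il23a against sham remained (2.53, edgeR adjusted p = 0.0336).

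By class, neutrophil-like cells had 213 ± 146 CPM of Il23a (SD, n = 7 samples) and monocyte-like cells 27.7 ± 31.4 CPM, with neutrophil-like cells higher in 7 of 7 samples (exact permutation p = 0.0156, adjusted p = 0.202). Monocyte-like and macrophage-like cells (9.22 ± 7.56 CPM) could not be ordered (exact permutation p = 0.5). The neutrophil-like class held 2 clusters, the smaller of 1592 cells at 400 CPM and the larger of 11614 cells at 184 CPM, and 1230 cells of the smaller came from ctrl day 1. An Il23a UMI was found in 9.78%, 13.6% and 23.4% of neutrophil-like cells in ctrl and 6.17%, 14.9% and 11.7% in treat. In BECs, which are deeper, the share was 0.939 to 4.79%. Neutrophil-like cells with Il23a also more often held Cxcl1 (71.3% against 26.7%), Nfkbiz (50.5% against 22.6%), Ptgs2 (50.1% against 30.8%) and Cxcl3 (28.1% against 13.8%), each in 6 of 6 samples, at median depths of 1796 and 1672 UMIs. Of the 64 other axis genes, 22 were read in at least 10% of either kind of cell. With the samples pooled, 14 of these were read more often with Il23a and 8 less often. Taken by sample, 9 were higher in 6 of 6, 0 were lower in 6 of 6, and 1, Cebpd (26.3% against 29.95%), was lower in most. Il12b, the other chain of IL-23, was not detectable at this depth in the 1702 neutrophil-like cells with Il23a or in the 11504 without, and was highest in dendritic-like cells at 2.72 CPM. In T-like cells Il23a had no UMI in sham and 1.99 to 5.50 CPM after LT. The limit of 3 counts lay at 10.6, 13.1 and 33.2 CPM in sham 1, 2 and 3, so a difference of this size was not detectable there.

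In monocyte-like cells Il23a stood at 15.04, 18.2 and 92.3 CPM in ctrl and 4.02, 24.6 and 39.99 CPM in treat, with 3 UMIs in each day 1 sample. Day 7 was above day 1 in both arms, by 3.41 on the log2 scale (SE 0.64), which did not pass (edgeR adjusted p = 0.0514). Ctrl day 7 stood at 22.7 CPM without library 2. In BECs the levels were 1.29, 2.24 and 2.05 CPM in sham, 1.93, 1.53 and 4.60 CPM in ctrl and 1.83, 6.69 and 5.34 CPM in treat. The day 7 samples and treat day 3 were the highest, and the difference from sham did not pass (log2 fold change 1.03, edgeR adjusted p = 0.25).

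Il23r (ENSRNOG00000007544), the receptor chain specific to IL-23, was read in T-like cells at 14.6 ± 12.2 CPM and in NK-like cells at 8.14 ± 8.09 CPM (SD, n = 9). T-like cells were the higher in 7 of 9 samples (exact permutation p = 0.0273, adjusted p = 0.202). Over all cells it stood at 0.64, 0.27 and 0.32 CPM in sham, 0.23, 0.39 and 1.06 CPM in ctrl and 0.31, 0.85 and 0.60 CPM in treat, and the groups overlapped, with ctrl day 7 at 0.58 CPM without library 2 (log2 fold change 0.94, edgeR adjusted p = 0.307). In T-like cells the levels were 14.1, 8.70 and 44.2 CPM in sham, 18.6, 8.94 and 8.02 CPM in ctrl and 17.9, 6.90 and 4.10 CPM in treat. Ctrl day 7 stood at 3.67 CPM without library 2 and at 14.7 CPM without library 3. In both arms day 1 was the highest, and Il23r fell from day 1 to day 7 by 1.65 on the log2 scale (SE 0.42, edgeR adjusted p = 0.0366), or by 2.19 without library 2 of ctrl day 7 (adjusted p = 0.00389). The call was lost with free RNA subtracted (-1.53, adjusted p = 0.152), by library size alone (adjusted p = 0.0501), without the hemoglobin limit (adjusted p = 0.0516), in the transplanted samples alone (adjusted p = 0.0508), over libraries in place of samples (-1.02, adjusted p = 0.671) and without any of ctrl day 1, ctrl day 7, treat day 1 or treat day 7, where the values were -1.87, -2.08, -1.37 and -1.20; it held in 15 of 24 alternatives. Il17a, Il17f and Il23r were thus the 3 of 6 members called lower on day 7 in T-like cells, against 0.635% of all genes, and 0 of 6 were called in the transplanted samples alone. In NK-like cells Il23r stood at 16.3, 19.7 and 19.0 CPM in sham, 3.83, 2.87 and 1.07 CPM in ctrl and 9.07, 1.31 and 0.19 CPM in treat. All transplanted samples were below sham, as for 4.17% of genes, on 1 to 15 UMIs in any sample, and the difference did not pass (log2 fold change -3.22, SE 0.85, edgeR adjusted p = 0.0692). The make-up of the class moved with this difference. In sham 1, 2 and 3 the cells of the class that fell into the clusters named NK-like held 0 of the 2, 9 and 15 Il23r UMIs. The 1889-cell Il17a cluster, with 4, 17 and 13 cells of the class, held 2, 7 and 7, and the unnamed cluster found mainly in sham 2 and 3 held 0, 1 and 8. The part of this make-up in the difference was not tested.

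Il17ra (ENSRNOG00000011153), the signalling chain shared by receptors for IL-17A and IL-17F, was read in every class. Neutrophil-like cells were highest, at 248 ± 90.0 CPM, followed by monocyte-like cells at 135 ± 45.7 CPM (SD, n = 7 each, higher in 7 of 7 samples, exact permutation p = 0.0156, adjusted p = 0.202). Plasmacytoid dendritic-like cells (101 ± 27.6 CPM) could not be told from monocyte-like cells (exact permutation p = 0.219). Macrophage-like cells followed at 62.3 CPM, B-like at 56.9, dendritic-like at 53.5, NK-like at 47.4 and T-like at 33.2 CPM. The cells on which IL-17 is best known to act had less. Fibroblasts stood at 15.7 ± 3.59 CPM and BECs at 13.5 ± 2.81 CPM (SD, n = 9), and the lowest levels were in lymphatic endothelial-like cells (6.15 CPM, n = 8) and plasma-like cells (5.34 CPM, n = 2). Il17ra was read in 11.6% of BECs and 32.2% of neutrophil-like cells. The 2 neutrophil-like clusters differed in the opposite way to Il23a, with 251 CPM of Il17ra in the larger and 88.9 CPM in the smaller. These levels are pooled over samples, and 1230 of the 1592 cells of the smaller came from ctrl day 1. Levels within a sample are not given. An unnamed cluster of 3652 cells nearest to monocytes had 301 CPM.

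Over all cells Il17ra stood at 31.2, 23.4 and 18.4 CPM in sham, 35.3, 68.3 and 47.6 CPM in ctrl and 37.3, 37.5 and 50.4 CPM in treat. Every transplanted sample lay above every sham sample, as for 3.63% of genes, with ctrl day 3 the highest. Without library 1, ctrl day 1 stood at 21.3 CPM, below sham 1 and sham 2, so that the groups overlapped. Il17ra rose by 1.24 on the log2 scale (SE 0.22, 2.36-fold, edgeR adjusted p = 0.0189; exact permutation p = 0.0238, 0.0833 adjusted over the members). In ctrl alone the rise was 1.40 (edgeR adjusted p = 0.0230), and in treat the log2 fold change was 1.08 (edgeR adjusted p = 0.0820). The call was lost without sham 2 (adjusted p = 0.0759), sham 3 (adjusted p = 0.0963) or treat day 3 (adjusted p = 0.0503), and without library 1 of ctrl day 1 (1.16, adjusted p = 0.0652). Class by class the rise did not pass the test. Of the 7 classes with at least 20 cells in every sample, 0 passed in edgeR's test, and 1, fibroblasts, had an unadjusted p under 0.05. The log2 fold changes were 0.12 in BECs (adjusted p = 0.724), 0.61 in fibroblasts (adjusted p = 0.185), 0.53 in blood endothelial-like cells (adjusted p = 0.422), 0.19 in mural, -0.22 in macrophage-like, -0.21 in T-like and 0.19 in NK-like cells. In these classes, in the same order, 3.39%, 1.93%, 1.08%, 3.09%, 17.2%, 0.244% and 2.11% of genes were called. In BECs the samples stood at 18.0, 10.9 and 13.8 CPM in sham, 11.0, 12.6 and 16.3 CPM in ctrl and 11.2, 11.2 and 16.8 CPM in treat, with all groups overlapping. Neutrophil-like cells, which held 0.1% of the Il17ra UMIs in sham 2 and in sham 3 and 13.7% in sham 1, held 47.4%, 30.2% and 8.2% in ctrl and 25%, 7.2% and 7.0% in treat. Monocyte-like cells held 37.2% in treat day 3. The part of these cell numbers in the rise was not tested.

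Ccr6 (ENSRNOG00000012964) was highest in B-like cells, at 82.9 ± 46.4 CPM (SD, n = 8), which held 39.4% of its UMIs. T-like cells followed at 42.8 ± 35.6 CPM and NK-like cells at 24.3 ± 18.9 CPM (SD, n = 9). B-like cells were above T-like cells in 7 of 8 samples, but these neighbours did not differ beyond their spread (exact permutation p = 0.102), and neither did T-like and NK-like cells (exact permutation p = 0.109). Within the lymphocytes, a CD8 T-like cluster held 689 Ccr6 UMIs, 13.2% of all, at 93.7 CPM with 2.31 CPM of Il17a, and the Il17a cluster held 558 UMIs at 75.0 CPM. Ccr6 thus marked cells with and without Il17a.

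Over all cells Ccr6 stood at 4.49, 0.64 and 0.83 CPM in sham, 0.99, 4.37 and 15.6 CPM in ctrl and 1.47, 4.13 and 12.9 CPM in treat. In each arm it was lowest on day 1 and highest on day 7, and sham 1 lay within the transplanted range. Without library 1, ctrl day 1 stood at 0.49 CPM and treat day 7 at 5.59 CPM, which kept this order. Day 7 exceeded day 1 by 3.47 on the log2 scale (SE 0.86, 11.1-fold), which did not pass (edgeR adjusted p = 0.0849). It passed in 4 of 36 alternatives, among them the transplanted samples alone (3.46, edgeR adjusted p = 0.0498) and DESeq2 (3.47, adjusted p = 0.000472, 2718 of 16457 genes called). Without library 1 of treat day 7 it was 2.95 (edgeR adjusted p = 0.163). Of the 7 members 0 were called on day 7 against day 1 over all cells, where 2.79% of genes were called. The difference from sham was 2.24 (SE 1.08, edgeR adjusted p = 0.186). The number of B-like cells moved with Ccr6, from 100 and 514 on day 1 to 4934 and 2239 on day 7 in ctrl and treat. So did an unnamed cluster nearest to T cells but also NK-like, which held 19.2% of Ccr6 UMIs at 69.0 CPM. That cluster went from 7 and 10 cells on day 1 to 1523 and 1676 on day 7. The part of these cell numbers in the difference between days was not tested. In B-like cells themselves Ccr6 stood at 90.2, 154 and 97.9 CPM in ctrl and 82.6 to 107 CPM in treat. No difference between days passed (log2 fold change 0.19, SE 0.32, edgeR adjusted p = 1.00). The sham samples with at least 20 B-like cells lay below all transplanted samples, the lowest at 13.5 CPM. These sham values rest on few cells and few UMIs, and sham was not in this fit. In sham 2 and 3, 26 and 33 B-like cells lay in the smaller B-like cluster, and 14 and 3 in the larger. In T-like cells Ccr6 stood at 102, 13.1 and 99.5 CPM in sham. Ctrl stood at 55.8, 19.9 and 22.9 CPM and treat at 37.5, 11.3 and 22.5 CPM. Treat day 7 stood at 11.1 CPM without library 1, and ctrl day 7 at 36.6 CPM without library 3. The fall against sham did not pass (log2 fold change -1.38, edgeR adjusted p = 0.297). NK-like cells stood at 48.8, 50.3 and 40.5 CPM in sham and 4.08 to 27.2 CPM after LT, with no overlap, as for 4.17% of genes (log2 fold change -2.02, SE 0.51, edgeR adjusted p = 0.0588). In sham the clusters named NK-like held 0 of the 6, 23 and 32 Ccr6 UMIs of the class. The Il17a cluster held 6, 13 and 8, and the unnamed cluster found mainly in sham 2 and 3 held 0, 8 and 22. Here too the make-up of the class moved with the difference, and its part was not tested.

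The other genes of the axis were followed from lists of ligands, receptors, factors with signalling proteins, and IL-17 target genes. Over all cells, transplanted against sham, 4 of 25 target genes rose and 0 fell by edgeR's test, with a list median of 1.23 on the log2 scale against -0.03 over all genes; 4.98% of all genes were called higher and 6.98% lower. Mmp9, a matrix-degrading enzyme of neutrophils, rose by 5.16 (adjusted p = 0.0168), S100a9 by 4.89 (adjusted p = 0.0485), the neutrophil chemokine Cxcl2 by 1.39 (adjusted p = 0.0433) and the factor Cebpb by 0.86 (adjusted p = 0.0374). Neutrophil-like cells held 70.5% of Mmp9, 88.2% of S100a9 and 37.9% of Cxcl2 UMIs, and their number rose after LT as given above. S100a9 and Cxcl2 passed in 9 and 10 of 21 settings, Mmp9 in 19 and Cebpb in 13. Cxcl2 stood at 688 and 754 CPM in treat on days 1 and 7, inside the sham range of 602 to 907 CPM.

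Of 12 ligands tested, 1 rose and 2 fell, with a list median of 0.41. Il1b, which supports type 17 responses, rose by 2.14 (edgeR adjusted p = 0.0252), but treat day 1 (358 CPM) lay below sham 1 (365 CPM). Il25 fell by 3.11 (adjusted p = 0.0316) and Il17d by 1.67 (adjusted p = 0.0231), both members of the IL-17 cytokine family. Il25 stood at 12.4 CPM in sham 1, against 2.27 and 1.77 CPM in sham 2 and 3. Of 12 receptors, 2 rose and 2 fell, with a list median of -0.17. Il21r rose by 2.83 (adjusted p = 0.0308) and Il22ra2, the soluble IL-22 binding protein, by 1.02 (adjusted p = 0.0397). Il17rb, the receptor for IL-25, fell by 2.55 (adjusted p = 0.0340) and Il17rd by 1.74 (adjusted p = 0.0193). Il17rb too was highest in sham 1, at 27.5 CPM against 6.48 and 5.49 CPM in sham 2 and 3. Of 21 settings, Il1b passed in 19, Il17d and Il17rd in 18 each, and Il25, Il21r, Il22ra2 and Il17rb in 14 each. Il17d was read mainly in fibroblasts (68.1% of its UMIs). Of 14 factors 0 passed in edgeR's test, with a list median of 0.48, where 12% of all genes were called. For treat against ctrl 0 genes of any list passed, where 0 of all 15975 genes tested passed.

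On day 7 against day 1 over all cells, 3 of 12 receptors and 3 of 14 factors rose and 1 of 25 targets fell, where 2.19% of all genes were called higher and 0.602% lower. The IL-12 receptor genes Il12rb2 and Il12rb1, the latter also part of the IL-23 receptor, rose by 3.89 (edgeR adjusted p = 0.0286) and 2.66 (adjusted p = 0.0405), and Il21r by 2.32 (adjusted p = 0.0224). The lymphocyte factors Irf4 and Batf rose by 3.43 (adjusted p = 0.0231) and 2.85 (adjusted p = 0.0227), and Tnfaip3, which restrains NF-κB, by 1.62 (adjusted p = 0.0350). The antimicrobial gene Lcn2 fell by 1.89 (adjusted p = 0.0448). Of 21 settings, Il12rb2 passed in 12, Il12rb1 in 10, Il21r in 14, Irf4 in 15, Batf in 14, Tnfaip3 in 11 and Lcn2 in 11. T-like cells made up 2.03% and 3.17% of cells on day 1 and 12.3% and 12.7% on day 7 in ctrl and treat. Within T-like cells 0 of 13 factors and 0 of 7 receptors passed in edgeR's test for the same days, where 1.88% of all genes were called.

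Within T-like cells, day 7 against day 1, 1 of 5 ligands tested rose, 2 fell and 6 of 15 targets fell, where 1.25% of genes were called higher and 0.635% lower. Il21, a helper T cell cytokine, rose by 7.62 (edgeR adjusted p = 0.0125), from 0 UMIs in both day 1 samples to 7.87 and 4.97 CPM on day 7, so that the fitted value depends on the prior count. Csf2, which encodes GM-CSF and is often made by type 17 cells, fell by 3.94 (adjusted p = 0.0199), and Ccl20, the CCR6 ligand, by 2.62 (adjusted p = 0.0265). Both falls came mainly from treat. From day 1 to day 7 Csf2 went from 1.24 to 0.89 CPM in ctrl and from 8.33 to 0.16 CPM in treat. Ccl20 rose from 3.72 to 8.24 CPM in ctrl and fell from 75.8 to 4.73 CPM in treat. Csf2 passed in 17 of 24 settings and Ccl20 in 14 of 25. Reg3b fell by 5.08 (adjusted p = 1.23e-09) and Reg3g fell by 4.12 (adjusted p = 3.11e-09), both antimicrobial lectins of epithelium. S100a8, abundant in neutrophils, fell by 2.87 (adjusted p = 0.000573), and Lcn2 fell by 2.70 (adjusted p = 3.38e-05). Reg3b moved the same way in barcodes without cells, where it went from 4997 to 84.9 CPM in ctrl and from 1892 to 251 CPM in treat between days 1 and 7. S100a8 went from 5467 to 3367 CPM in ctrl and from 5909 to 1142 CPM in treat in the same barcodes. Free RNA made up an estimated 2.42 to 20.3% of T-like UMIs, and its part in these values was not tested. For T-like cells, transplanted against sham and treat against ctrl, 0 genes of any list passed in edgeR's test, where 0.244% and 0.0129% of all genes were called.

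Across the 40 clusters, the genes whose log level followed each member most closely were found by Pearson's r, given as a description over clusters that share libraries. They were Art2b (r = 0.866), Cd40lg (0.842) and Arpp21 (0.840) for Il17a, and Spo11 (0.892), Scart1 (0.891) and Ccr4 (0.877) for Il17f. For Il22 they were Ly49s4 (0.896), LOC687707 (0.889) and Klra22 (0.878), and for Il23r Epha5 (0.857), Cnga1 (0.852) and AABR07036336.2 (0.846). Il23a was followed by Ifit1bl (0.859), Acod1 (0.837) and Nrg4 (0.831), Ccr6 by Ms4a4c (0.913), Gpr174 (0.910) and Trim30c (0.907), and Il17ra by Synj1 (0.834), Itgb2 (0.828) and Prr29 (0.828).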

How the data were processed

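The members and lists were chosen with earlier results of these data known. The authors deposited raw UMI counts per gene and barcode, and the submitters' processing notes name Cell Ranger 5.0.1 and Seurat 3.2.0. The genome build is not given in the sources used here. Library 1 of treat day 3 was not analysed here. Of 161207 barcodes with over 400 genes, 150379 had fewer than 6000 genes, less than 25% of UMIs from mitochondrial genes and less than 3% from hemoglobin genes. Doublet scores above the 92.5th percentile of a library were removed (10447), leaving 139932 cells. Clustering used 2000 variable genes without members or axis genes, 30 components, 20 neighbours and Leiden resolution 0.9. To be named, a cluster needed at least 3 markers of its nearest list in over 10% of its cells at over 2-fold. It still stayed unnamed when another list had more of its leading genes or came close. The same held when no marker was among its leading genes or its UMIs were few. An unnamed cluster nearest to T cells but also NK-like had 3375 cells, 7 of 10 T cell markers and 19.2% of Ccr6 UMIs. It held 3, 3 and 5 cells of sham 1, 2 and 3. UMIs were summed per sample and class (at least 20 cells) and tested with edgeR 4.0.16 (quasi-likelihood, TMM, filterByExpr, Benjamini-Hochberg over all genes tested, threshold 0.05) in R 4.3.3. DESeq2 1.42.0 was an alternative. All 9 samples entered the main fits over all cells and in the classes with at least 20 cells in every sample, T-like cells among them. Neutrophil-, monocyte-, dendritic-, plasmacytoid dendritic- and B-like cells were fitted in the transplanted samples alone. Day 7 against day 1 had 1 ctrl and 1 treat sample a day. Exact permutation tests, two-sided, used log2(CPM + 1) or shares. Barcodes with at most 100 UMIs gave the free RNA profile. Libraries of a sample shared 0 to 41 barcodes. The scripts were tested on simulated data. The text names every member, genes of the axis lists past the threshold (up to 4 per list and comparison), and the 3 genes most like each member. The marker genes named beside Il17a and Il23a cells were chosen after their values were seen. Leaving out single libraries, the top Il17a cell of ctrl day 3 or insulin-rich cells and joining all T and NK clusters were alternatives chosen after seeing the data.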

Additional observations from a re-analysis of the deposited data

Results flagged for a closer look

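Over all cells, Il17f moved in opposite directions between days 1 and 7 in the arms. On the log2(CPM + 1) scale day 7 minus day 1 was 0.79 in ctrl and -0.13 in treat. Without library 2, ctrl day 7 stood at 0.36 CPM, close to the 0.33 CPM of ctrl day 1. In T-like cells Il22 did the same, at 0.13 in ctrl and -1.15 in treat. Without library 2, ctrl day 7 stood at 0.86 CPM of Il22, on 11 UMIs, against 3.72 CPM on day 1. Each arm has 1 sample per day, so neither difference between arms was tested.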

How the results depend on the processing

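Of 1374 recomputed values for 69 results, 1233 kept their direction and side of the threshold, 54 reversed, 40 lost and 18 gained significance, and 29 counts of called members moved by over 1.5 times. The cause of each change was not tested. Library 2 of ctrl day 7, the 32 to 76 T-like cells per sham sample and the 183 Il22 UMIs limit the results.

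Counts of members called over all cells against sham (2) became 1 with each library as its own sample and 0 to 2 on leaving out 1 sample. For day 7 against day 1 (0) they became 1 with transplanted samples only, 1 with DESeq2 (which called 2718 of 16457 genes), 2 with each library and 0 to 1. In T-like cells against sham (1) they became 2 with the day block, 3 with no filter on low counts, 0 with free RNA subtracted, each library, T-like and NK-like together or all T and NK clusters, and 0 to 2. For treat against ctrl (0) they became 2 with the day block, 2 without the filter and 0 to 1. For day 7 against day 1 (3) they became 0 with transplanted samples only, free RNA subtracted or each library, 1 with doublets kept, no hemoglobin limit, T-like and NK-like together or all T and NK clusters, and 0 to 4. The share of all genes called is not given here for most of these settings, so the counts cannot be set against it.

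Reversed log2 values, none past the threshold, were these. Over all cells against sham, Il17a was 0.10 with doublets kept and 0.0786 with each library, and Il17f 0.049 with doublets kept. For treat against ctrl over all cells, Ccr6 was 0.0148 with the day block, and Il23r 0.15 with the day block, 0.0355 by library size, 0.0254 with free RNA subtracted and 0.50 without library 2 of ctrl day 7. Without that library, day 7 against day 1 over all cells gave -0.52 for Il17f and -0.73 for Il23a, and treat against ctrl gave 0.0926 for Il23r in T-like, 0.0496 for Il23a in neutrophil-like and 0.48 for Il23a in monocyte-like cells. With each library, Il17ra was -0.0019 (treat against ctrl) and Il22 0.22 (day 7) in T-like cells. Over all T and NK clusters on day 7, Ccr6 was 0.29 and Il17ra 0.0035. Il17ra in BECs against sham was -0.0874 by library size and -0.13 with free RNA subtracted, and in monocyte-like cells, treat against ctrl, 0.20 at Leiden resolution 2 and 0.0004 without the hemoglobin limit.

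Leaving out 1 sample in turn gave these ranges where the sign turned. Against sham over all cells: Il17a -0.56 to 0.91, Il17f -0.57 to 0.24, Il22 -0.76 to 0.0284. Treat against ctrl over all cells: Ccr6 -1.34 to 1.16, Il23r -0.43 to 0.89. Day 7 over all cells: Il17f -0.83 to 1.90. In T-like cells: Il17ra against sham -0.42 to 0.0599, Ccr6 and Il23r in treat against ctrl -0.84 to 0.0429 and -0.91 to 0.15, Il22 on day 7 -1.79 to 0.20. Il17ra against sham: BECs -0.0293 to 0.24, mural -0.24 to 1.55, NK-like -0.10 to 0.68. Treat against ctrl in monocyte-like cells: Il23a -1.43 to 0.77, Il17ra -0.14 to 0.14.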
